A study of Homo sapiens with 12 samples.

Results

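The 10 genes described here encode the inhibitors of the G1 cyclin-dependent kinases and the main G1 cyclins of T cells, and they were taken by name from the 59050 genes of the count table. They are the CIP/KIP inhibitors CDKN1A, CDKN1B and CDKN1C, the INK4 inhibitors CDKN2A, CDKN2B, CDKN2C and CDKN2D, the D-type cyclins CCND2 and CCND3, and the E-type cyclin CCNE1. Of these 10 genes, 8 passed the filter on low counts that left 16208 genes for testing, and CDKN1C and CDKN2B did not pass. RNA was sequenced from MyLa cells, an established human line of cutaneous T-cell lymphoma that grows in suspension, kept in medium with 20 ng/mL interleukin-2, a T-cell growth factor. Cells received the solvent DMSO, 3.2 nM romidepsin (an inhibitor of class I histone deacetylases), 5.7 uM afatinib dimaleate (an irreversible inhibitor of the ErbB family of receptor tyrosine kinases), or both drugs, for 24 h. Solvent volume was the same in all 4 groups, each group held 3 libraries, and the study set out to examine the synergy of the drugs. All libraries came from 1 line, and the labels do not say whether the replicates were separate cultures, so p-values measure the spread between these libraries, which may be technical.

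The libraries held 8972228 to 12696653 assigned read pairs, so that 3 counts, the limit used for detection, correspond to 0.229 to 0.343 CPM, the unit of levels here (counts scaled to a common library size). Detection limits cover counting error only, while the 95% intervals of fold changes come from the edgeR fit and include the spread between libraries. The T-cell marker list summed to 1552 to 1636 CPM in DMSO, 570 to 586 CPM in romidepsin, 1071 to 1108 CPM in afatinib and 320 to 335 CPM in the combination, with 7 of its 9 genes passing the filter. IL2RA, the interleukin-2 receptor alpha chain, made up most of that sum, at 1223 ± 22.9 CPM (SD, n = 3) in DMSO and 422 ± 6.54 with romidepsin, while PTPRC, the leukocyte common antigen, went the other way, from 206 to 277 counts per library in DMSO to 422 to 515 with romidepsin. CD3E, a defining T-cell gene, had 0 to 4 counts per library, while CD3D had 86 to 288. The keratinocyte list, with KRT1 at 0 in each library, summed to 259 to 308 CPM in DMSO and 199 to 205 with romidepsin. With afatinib it summed to 257 to 283 CPM and with both drugs to 178 to 195. In DMSO it was mostly SFN, TP63 and KRT10, with means of 177, 58.7 and 41.5 CPM. The DMSO means of KRT5 and KRT14 were 4.82 and 1.16 CPM. With afatinib the mean of SFN was lower, at 126 CPM, and that of KRT10 higher, at 75.6 CPM. The fibroblast list, nearly all COL1A1 and COL3A1 with DCN at 0, summed to 173 to 199 CPM in DMSO, 26.1 to 32.4 with romidepsin, 97.9 to 103 with afatinib and 14.7 to 17.3 with both. The myeloid list, mostly CSF1R with FCN1 at 0, summed to 6.16 to 8.22 CPM in DMSO and afatinib, 29.3 to 36.6 with romidepsin and 16.1 to 19.2 with both, and the B-cell list, with MS4A1 at 0, to 1.84 to 7.29 CPM over all libraries. KRT5, a keratin of basal keratinocytes, reached 43 to 126 counts in 4 libraries (DMSO replicates 1 and 2, afatinib replicate 3 and combination replicate 1) and had no more than 1 elsewhere. Where 1 of the 8 tested genes lost a call without those 4 libraries, both values are given, and any part of other cells in the results was not tested.

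Cells pass from G1 into S phase when cyclin D bound to CDK4 or CDK6, and then cyclin E bound to CDK2, phosphorylate the retinoblastoma protein and free E2F factors to switch on replication genes. INK4 proteins bind CDK4 and CDK6 and keep cyclin D off. CIP/KIP proteins bind whole cyclin-CDK complexes and block those with CDK2, and they also help cyclin D and CDK4 assemble. The 9p21 locus, which holds CDKN2A and CDKN2B, is often deleted or silenced in cutaneous T-cell lymphoma, and CDKN1A is a textbook target of histone deacetylase inhibitors, which act on it through GC boxes near its start.

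The promoters of CDKN1A and CDKN2D, both of which rose with romidepsin, and of CDKN1B, which fell, are shown because the GC box is the element through which the first of them is known to respond to this drug class. Each sequence is the RefSeq promoter of build GRCh38.p14, 300 bases around the annotated start, written 5′ to 3′ along the gene. Capitals mark GC boxes, the letters GGGCGG on the strand shown or on the other strand.
CDKN1A, chr6:36678464-36678763, plus strand: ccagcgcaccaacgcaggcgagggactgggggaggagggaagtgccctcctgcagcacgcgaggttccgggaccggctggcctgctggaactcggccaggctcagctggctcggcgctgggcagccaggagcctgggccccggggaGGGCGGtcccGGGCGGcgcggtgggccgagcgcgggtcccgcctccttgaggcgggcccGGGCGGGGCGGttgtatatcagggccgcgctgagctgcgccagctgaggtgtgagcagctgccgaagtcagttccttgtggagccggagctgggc
CDKN2D, chr19:10568930-10569229, minus strand: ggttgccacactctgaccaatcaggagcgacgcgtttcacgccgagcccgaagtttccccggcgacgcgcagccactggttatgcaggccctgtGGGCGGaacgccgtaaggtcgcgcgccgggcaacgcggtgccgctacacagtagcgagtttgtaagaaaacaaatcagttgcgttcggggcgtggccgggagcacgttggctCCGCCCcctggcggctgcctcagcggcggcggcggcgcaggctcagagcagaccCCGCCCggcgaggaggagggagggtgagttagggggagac
CDKN1B, chr12:12717118-12717417, plus strand: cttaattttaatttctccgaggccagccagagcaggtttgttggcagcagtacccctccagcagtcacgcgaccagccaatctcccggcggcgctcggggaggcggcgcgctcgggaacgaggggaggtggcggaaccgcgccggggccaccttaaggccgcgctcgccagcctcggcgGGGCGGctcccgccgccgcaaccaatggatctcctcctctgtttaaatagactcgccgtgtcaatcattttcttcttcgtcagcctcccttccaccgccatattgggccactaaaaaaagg
CDKN1A held 4 matches, CDKN2D held 3 and CDKN1B held 1. RefSeq gave 13 promoters for 8 of the 10 genes, none being matched for CDKN1C and CCND2. A GC box was present in 10 of the 13, beside 45.0% of the 35116 promoters of the same length. The 13 include several promoters of the same gene. Their GC content, 46.3% to 81.0%, was not matched in that comparison. CCNE1 held 7 matches and the promoter of CDKN2B 2. The promoters of CDKN2C, which also fell with romidepsin, held 0, 6 and 1. Those of CCND3, which rose, held 5, 4 and 0. The pair of promoters of CDKN2A held 0 and 2. The E2F letters TTTCGCGC or TTTGGCGC, on either strand, were in 0 of the 13 promoters and in 1.1% of all. The E-box letters CACGTG were in 2 of the 13, both of CDKN2C, and in 7.3% of all. These are counts of letters in a fixed window, on which no binding was measured.

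**Figure D1:**
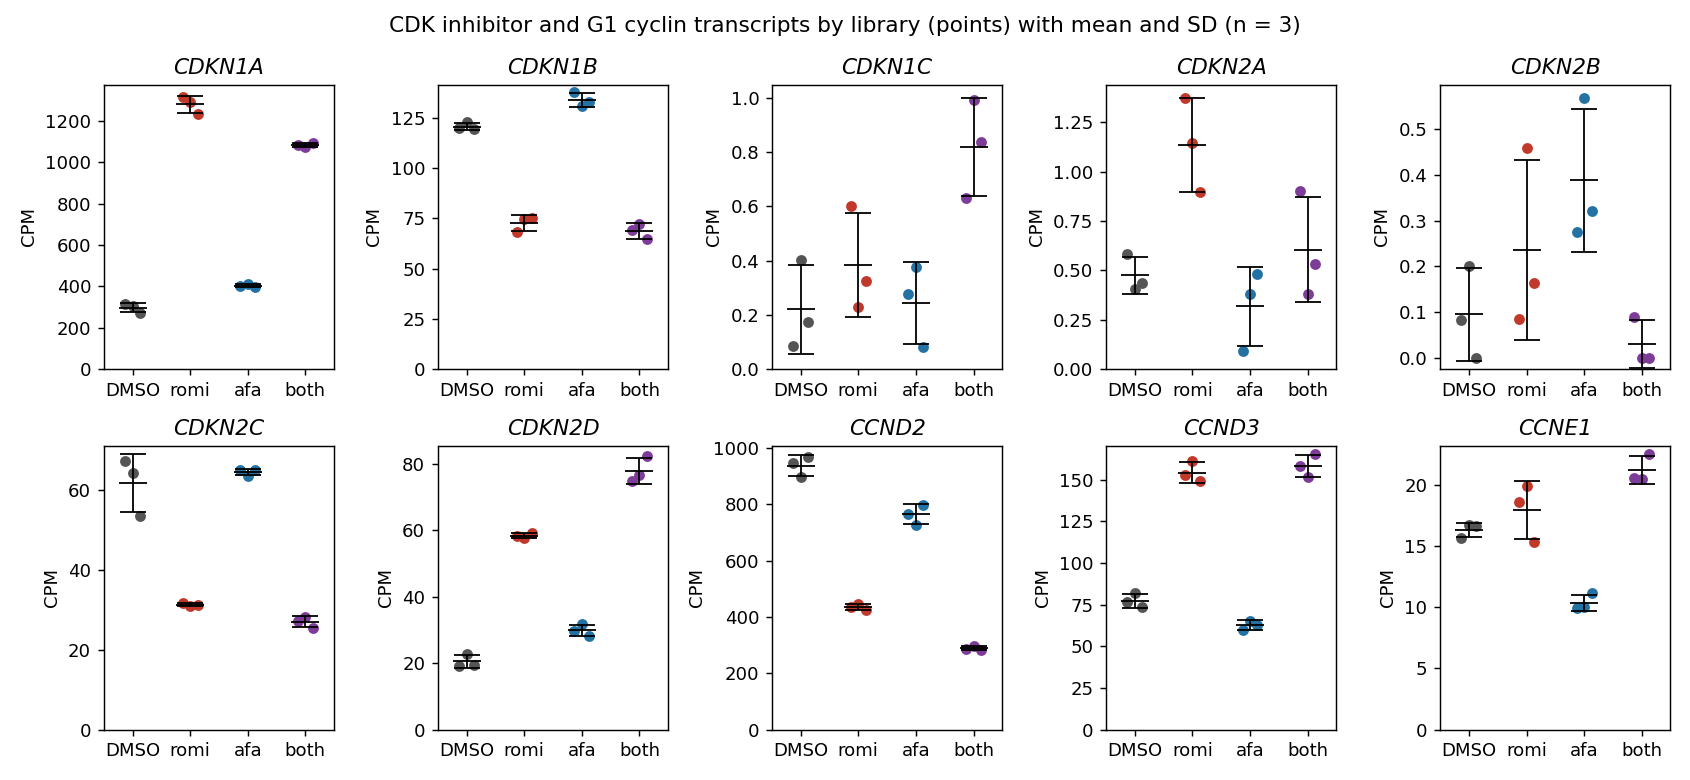
Level of each of the 10 genes in every library (vertical axis: CPM, with its own linear scale per gene; horizontal axis: treatment). Points are single libraries and bars show the mean and SD of 3 libraries; CDKN1A and CDKN2D were highest in the groups with romidepsin and CCND2 was lowest there, while CDKN1C, CDKN2A and CDKN2B stayed below 2 CPM throughout.

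With romidepsin, 4 of the 8 tested genes were higher than in DMSO, 3 were lower and 1 was not called, where edgeR called 62.6% of all tested genes, 31.1% higher and 31.5% lower. CDKN1A, CDKN2A (which passed the filter through its romidepsin libraries), CDKN2D and CCND3 rose, and CDKN1B, CDKN2C and CCND2 fell. With afatinib, 3 of 8 were higher (CDKN1A, CDKN1B and CDKN2D), 3 were lower (CCND2, CCND3 and CCNE1) and 2 were not called, beside 45.4% of all genes, 22.0% higher and 23.3% lower. With both drugs, 4 were higher than in DMSO (CDKN1A, CDKN2D, CCND3 and CCNE1), 3 were lower (CDKN1B, CDKN2C and CCND2) and CDKN2A was not called, beside 74.3% of all genes, 37.2% higher and 37.1% lower. With so large a share of all genes called, nothing is read from these counts over 8 genes, and the description rests on each gene's own values. The 3 comparisons share the DMSO libraries. Calls with afatinib were split into 3571 higher and 3780 lower genes after TMM scaling and into 4600 and 2812 with library size alone, which moved the median change of all genes by 0.10 on the log2 scale. Under each scaling tried, the tested genes kept their directions in every comparison, except CDKN1B between the combination and romidepsin, which was not called under any (-0.08 with TMM and 0.0039 with library size alone). In bulk RNA, fewer cells with a transcript and less of it per cell cannot be told apart.

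**Figure D2:**
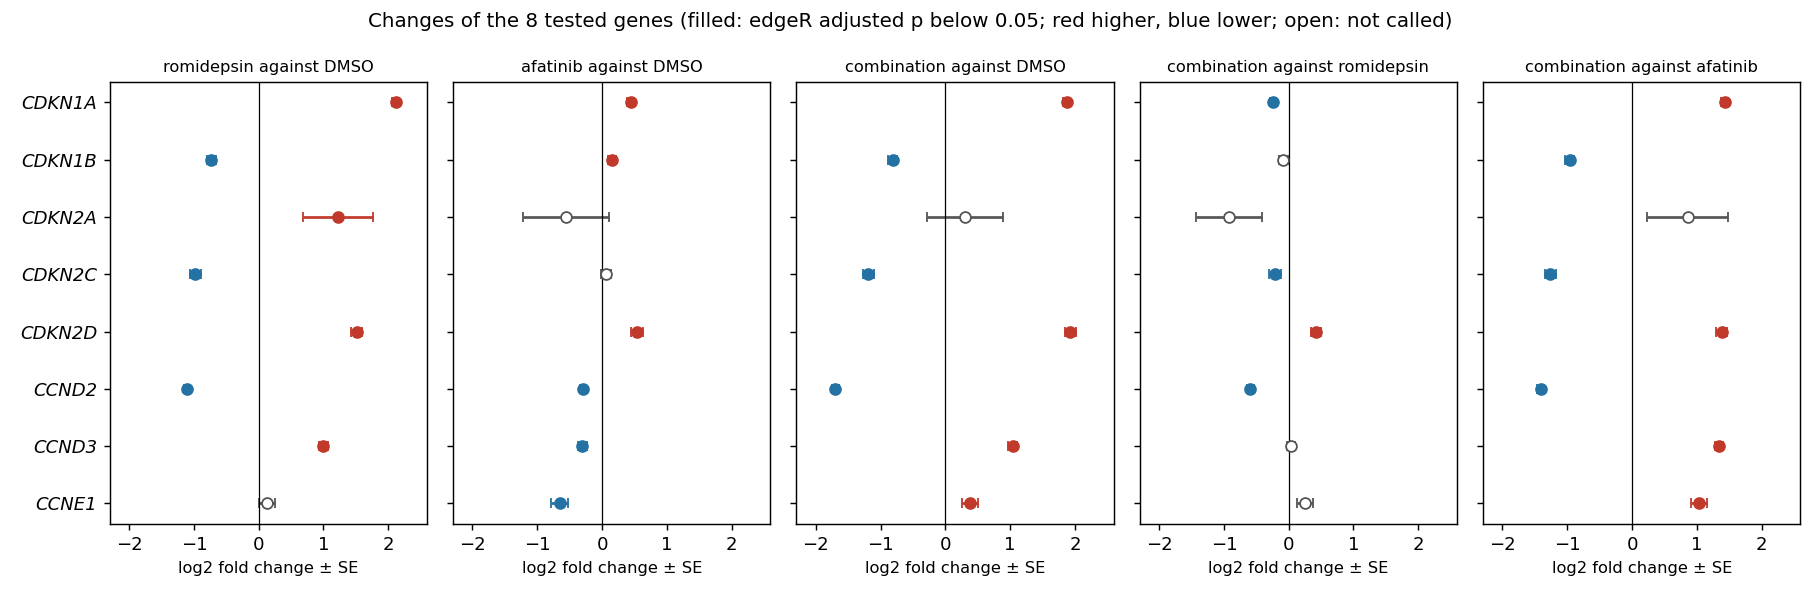
Log2 fold change of each tested gene in 5 comparisons (panels; horizontal axis: log2 fold change from the edgeR fit; bars: SE; filled points: edgeR adjusted p below 0.05, red higher and blue lower; open points: not called). CDKN1A and CDKN2D lie to the right and CCND2 to the left in the 3 comparisons with DMSO, and against romidepsin alone the combination has CDKN2D to the right and CDKN1A and CCND2 to the left.

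CDKN1A encodes p21, the CIP/KIP inhibitor induced by differentiation signals (chromosome 6, 36676460 to 36687339, exons of 3050 bases). Its level was 314, 303 and 273 CPM in the 3 DMSO libraries and 1316, 1290 and 1236 CPM with romidepsin. It was 403, 411 and 395 CPM with afatinib and 1084, 1074 and 1093 CPM with both drugs. No groups overlapped, and the order was romidepsin, combination, afatinib and DMSO. Romidepsin raised it by 2.11 on the log2 scale, or 4.32-fold (SE 0.06, edgeR adjusted p = 3.45e-34), and afatinib by 0.44 (SE 0.05, edgeR adjusted p = 2.57e-09). The combination was 1.87 above DMSO (SE 0.06, edgeR adjusted p = 1.39e-32) and 0.24 below romidepsin alone (log2 fold change -0.24, SE 0.05, edgeR adjusted p = 0.000124). Per kb of exon, CDKN1A stood at 97.2 CPM in DMSO and 420 CPM with romidepsin, and 99.4% of tested genes had a lower mean per kb. Exons of CDKN1A share 146 bases with the antisense gene DINOL, which had 69 counts in all libraries together, and the counting did not use strand. Pairs lying wholly within the shared bases were left out as falling on several genes.

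CDKN1B encodes p27, the inhibitor that holds CDK2 in resting T cells (chromosome 12, 12715058 to 12722369, exons of 2565 bases). It moved opposite to CDKN1A under romidepsin. DMSO libraries held 120, 123 and 119 CPM, romidepsin libraries 68.3, 74.8 and 75.4 CPM, and combination libraries 69.5, 72.1 and 64.5 CPM. Afatinib libraries held 138, 131 and 133 CPM. Both groups with romidepsin lay below the others and overlapped with each other. The fall with romidepsin was -0.73 on the log2 scale (SE 0.07, edgeR adjusted p = 9.65e-14) and that with both drugs -0.81 (SE 0.07, edgeR adjusted p = 1.16e-15). Between the combination and romidepsin alone, the difference was -0.08 with a 95% interval of -0.22 to 0.05 (edgeR adjusted p = 0.304). The difference of afatinib from DMSO was small, 0.15 (SE 0.06, edgeR adjusted p = 0.0469), and 13 of the alternatives put it past 0.05. Among these were leaving out any 1 of the DMSO or afatinib libraries, romidepsin replicate 3 or combination replicate 1, where the change was 0.14 to 0.17 with edgeR adjusted p of 0.0565 to 0.118, and leaving out the 4 libraries with KRT5 reads (0.21, edgeR adjusted p = 0.150).

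CDKN1C encodes p57, a CIP/KIP inhibitor from an imprinted locus (chromosome 11, 2883213 to 2885773). It had 1, 4 and 2 counts in DMSO, 7, 2 and 4 with romidepsin, 3, 4 and 1 with afatinib, and 7, 13 and 11 with both drugs. It did not pass the filter, and its 59 counts leave it among the lowest genes, with 3.65% of tested genes having a lower mean per kb. In CPM, libraries of the combination did not overlap those of any other group. Its lowest library and the highest with romidepsin both had 7 counts. At this depth no fold is given.

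CDKN2C encodes p18, an INK4 inhibitor expressed in lymphocytes (chromosome 1, 50960745 to 50974634, exons of 3018 bases). Its levels were 67.5, 64.3 and 53.6 CPM in DMSO, 65.2, 63.7 and 65.1 CPM with afatinib, 31.4 ± 0.359 CPM (SD, n = 3) with romidepsin, and 27.4, 28.2 and 25.5 CPM with both. The groups with romidepsin lay below the others without overlap. With romidepsin the log2 fold change was -0.98 (SE 0.09, edgeR adjusted p = 3.74e-14) and with both drugs -1.19 (SE 0.09, edgeR adjusted p = 2.22e-17). For afatinib the difference was 0.07 with a 95% interval of -0.09 to 0.22 (edgeR adjusted p = 0.535). The combination differed from romidepsin alone by -0.21 (SE 0.09, edgeR adjusted p = 0.0436), a call lost in 14 alternatives. Leaving out any 1 of the romidepsin libraries, DMSO replicate 1, afatinib replicate 1 or 3, or combination replicate 1 or 3 gave -0.18 to -0.23, with edgeR adjusted p of 0.0520 to 0.145. Without the 4 libraries with KRT5 reads it was -0.20 (edgeR adjusted p = 0.108).

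CDKN2D encodes p19, the remaining INK4 inhibitor, whose level varies over the cell cycle (chromosome 19, 10566462 to 10569059, exons of 1503 bases). It rose with each drug and most with both. DMSO libraries held 19.2, 22.8 and 19.5 CPM, afatinib libraries 29.6, 31.7 and 28.3 CPM, romidepsin libraries 58.2, 57.5 and 59.2 CPM, and combination libraries 74.9, 76.5 and 82.2 CPM. No groups overlapped. The rise was 0.55 with afatinib (SE 0.09, edgeR adjusted p = 3.64e-06), 1.51 with romidepsin (SE 0.09, edgeR adjusted p = 1.89e-20) and 1.93, or 3.81-fold, with both (SE 0.09, edgeR adjusted p = 2.26e-25). Above romidepsin alone, the combination added 0.42 (SE 0.08, edgeR adjusted p = 8.73e-06). CDKN2C and CDKN2D encode proteins that bind the same kinases, and under romidepsin their transcripts went in opposite directions. In CPM per kb, CDKN2C went from 20.5 in DMSO to 10.4 with romidepsin, and CDKN2D from 13.6 to 38.8.

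Of the 7 inhibitor genes, CDKN1A made up 54.4% ± 1.07 (SD, n = 3) of the summed CPM per kb in DMSO and 84.3% ± 0.685 with romidepsin. The share was 58.5% ± 0.473 with afatinib and 80.1% ± 0.291 with both drugs. CDKN1B went from 26.4% in DMSO to 5.71% with romidepsin and 6.04% with both, and CDKN2C from 11.4% to 2.09% and 2.02%. CDKN2D kept a share of 7.64% in DMSO and 7.80% with romidepsin, and reached 11.7% with both. CDKN1C, CDKN2A and CDKN2B each held at most 0.0746% in any group. These shares use the length of all annotated exons, not of the transcripts expressed, and are approximate between genes.

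The 9p21 genes were barely detected. CDKN2A, which gives rise to p16INK4a and p14ARF from separate first exons (chromosome 9, 21967753 to 21995301, exons of 4329 bases), had 7, 4 and 5 counts in DMSO and 16, 10 and 11 with romidepsin. It had 1, 4 and 6 counts with afatinib and 10, 5 and 7 with both drugs. All 12 libraries thus held at least 1 read and 11 held at least 3, the detection limit. Group means were 0.474 ± 0.0953 CPM in DMSO, 1.14 ± 0.238 with romidepsin, 0.317 ± 0.202 with afatinib and 0.605 ± 0.267 with both (SD, n = 3 each). Per kb of exon, 3.06% of tested genes had a lower mean, so a trace of RNA was detected, at the bottom of the genes that could be tested. Gene counts do not separate the transcripts of p16INK4a and p14ARF.

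CDKN2A reached the filter's minimum of 10 counts only in the romidepsin libraries and in combination replicate 1. It thus entered the tests through the group where it was highest. The p-values of its comparisons with romidepsin do not take that selection into account. Romidepsin libraries lay above DMSO libraries for CDKN2A, with a log2 fold change of 1.23 (SE 0.54, edgeR adjusted p = 0.0439), resting on 37 counts against 16. That call was lost in 13 alternatives: edgeR adjusted p was 0.121 with no filter on low counts, and DESeq2 gave 0.0754. Leaving out any 1 of the DMSO or combination libraries, romidepsin replicate 1 or 2, or afatinib replicate 2 gave 1.06 to 1.43, with edgeR adjusted p of 0.0507 to 0.156, and leaving out the 4 libraries with KRT5 reads gave 1.40 with 0.185. Against afatinib, romidepsin was higher by 1.78 (SE 0.58, edgeR adjusted p = 0.00625), a call lost without afatinib replicate 1 (1.37, edgeR adjusted p = 0.0559). The combination differed from DMSO by 0.31 with a 95% interval of -0.84 to 1.45 (edgeR adjusted p = 0.646). Exons of CDKN2A share 668 bases with the antisense gene CDKN2B-AS1, which had 1 count in DMSO, 15 with romidepsin, 2 with afatinib and 17 with both, each summed over 3 libraries. CDKN2A-DT, named as a divergent transcript, lies next to the end of CDKN2A away from its promoters and had 0, 16, 0 and 8 counts. Pairs that fell on several genes were left out, so pairs lying wholly within the shared bases are missing from the CDKN2A counts. Any other part of these neighbours in the CDKN2A counts was not tested.

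CDKN2B, which encodes p15, the INK4 inhibitor induced by TGF-beta (chromosome 9, 22002903 to 22009305, exons of 4000 bases), had 1, 2 and 0 counts in DMSO, 1, 4 and 2 with romidepsin, 3, 6 and 4 with afatinib, and 1, 0 and 0 with both drugs. Its 24 counts over all libraries did not pass the filter, and 0.216% of tested genes had a lower mean per kb. The afatinib libraries lay above those of DMSO and of the combination without overlap. CDKN2B was below the detection limit of 3 counts in every DMSO and combination library. It reached that limit in every afatinib library and in romidepsin replicate 2, with at most 6 counts. At this depth no fold is given.

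Around CDKN2A, the table lists 106 genes within 3 Mb on either side, of which 61 had 0 counts in all 12 libraries and 11 passed the filter. Of all 59050 genes counted, 33830 had at least 1 count over the 12 libraries and 16208 passed. Of 35 around CDKN2A that RefSeq calls protein-coding, 17 had 0 counts and 10 passed. Most of those 17 were interferon genes (IFNB1, IFNW1 and genes of the IFNA family), so nothing about the locus is read from these counts. MTAP, a methionine salvage gene that is often lost with CDKN2A and lies 111 kb from it (distances are between gene midpoints), had 6 counts in DMSO (1 to 3 per library), 42 with romidepsin (10 to 17), 50 with afatinib (14 to 20) and 93 with both (29 to 34). Each drug group lay above DMSO without overlap for MTAP (edgeR adjusted p = 2.20e-05 with romidepsin, 9.35e-06 with afatinib and 3.39e-09 with both). With 1 to 3 counts per DMSO library, MTAP passed the filter through the drug groups, where it was higher. The p-values of these comparisons do not take that selection into account. Reads became plentiful at KLHL9, a ubiquitin ligase adaptor 649 kb away, with 1329, 1359, 1363 and 1031 counts in DMSO, romidepsin, afatinib and combination. On the CDKN2B side, DMRTA1, 470 kb away, had 1, 1, 0 and 1. RNA counts do not show DNA copy number.

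**Figure D3:**
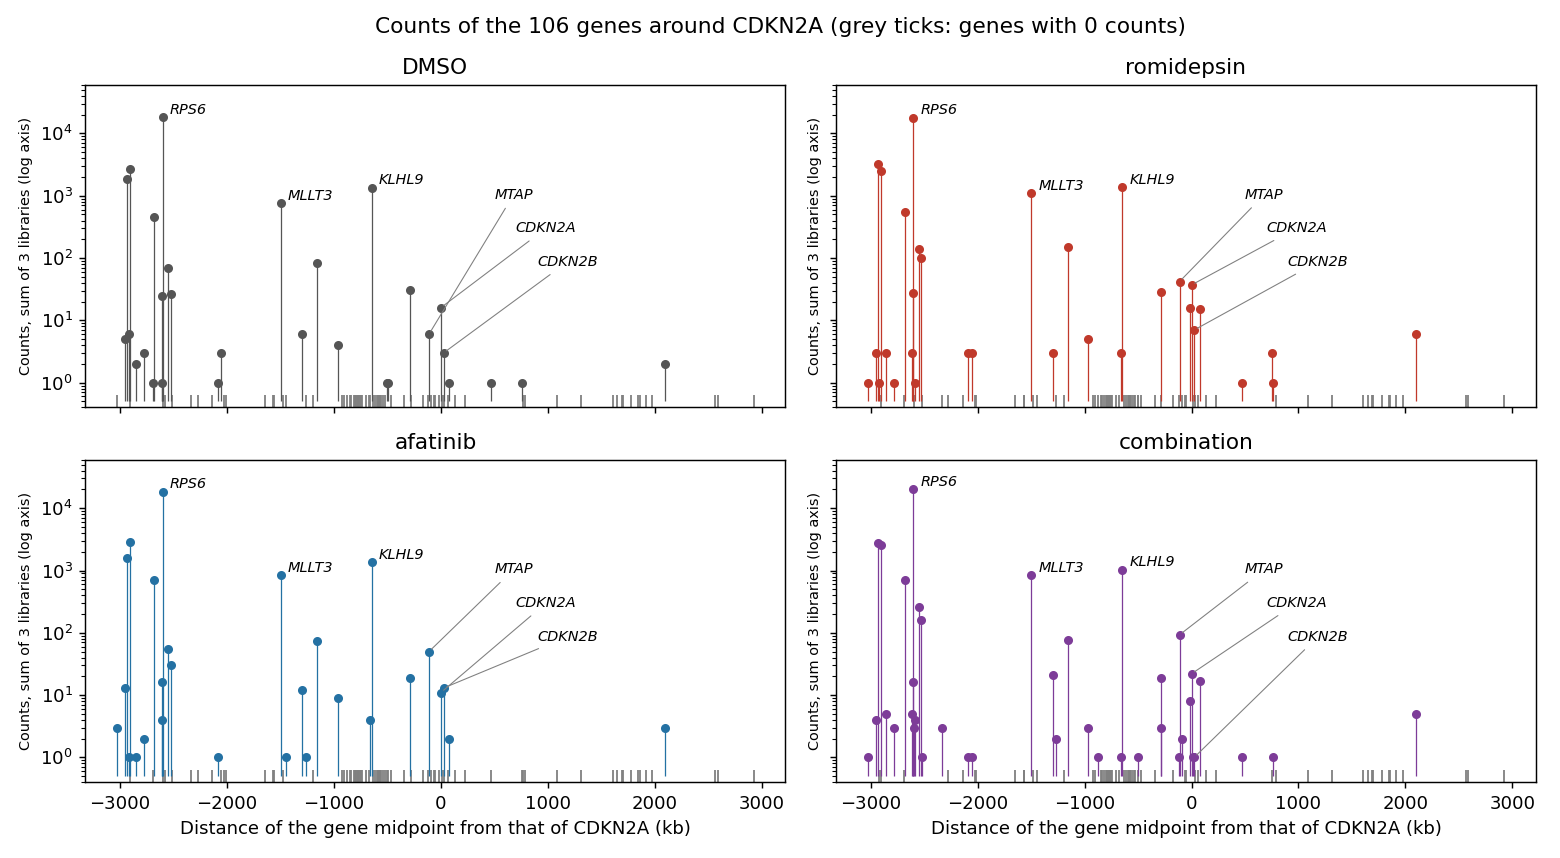
Counts of the genes around CDKN2A in each treatment (horizontal axis: distance from the middle of CDKN2A in kb; vertical axis: counts summed over 3 libraries, log axis; grey ticks: genes at 0). CDKN2A, CDKN2B and MTAP hold at most 93 counts in any group, while KLHL9 holds at least 1031 in each.

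CCND2 encodes cyclin D2, the D-type cyclin that interleukin-2 signalling induces in T cells (chromosome 12, 4273762 to 4305353, exons of 7170 bases). Its levels were 948, 897 and 968 CPM in DMSO, 768, 728 and 799 CPM with afatinib, 437, 447 and 424 CPM with romidepsin, and 288, 296 and 283 CPM with both drugs. The 4 groups did not overlap, and the combination was lowest. The log2 fold change against DMSO was -0.29 with afatinib (SE 0.05, edgeR adjusted p = 6.47e-06), -1.11 with romidepsin (SE 0.05, edgeR adjusted p = 9.55e-24) and -1.70 with both (SE 0.05, edgeR adjusted p = 2.68e-31). The combination was also below romidepsin alone (-0.59, SE 0.05, edgeR adjusted p = 2.23e-13). Exons of CCND2 share 162 bases with CCND2-AS1, which had 423 counts in all libraries. They also share 999 bases, 13.9% of their length, with AC008012.1, which had 0 counts. Pairs lying wholly within shared bases were left out, so the CCND2 levels may be too low.

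CCND3 encodes cyclin D3, needed for the expansion of thymocytes (chromosome 6, 41934933 to 42050357, exons of 5802 bases). It moved opposite to CCND2 under romidepsin. DMSO libraries held 76.6, 81.8 and 73.4 CPM, romidepsin libraries 153, 161 and 149 CPM, combination libraries 158, 152 and 165 CPM, and afatinib libraries 59.6, 65.4 and 62.8 CPM. The groups with romidepsin overlapped each other and lay above DMSO, and afatinib lay below it. Romidepsin raised it by 1.00 (SE 0.06, edgeR adjusted p = 1.17e-18) and the combination by 1.04 (SE 0.06, edgeR adjusted p = 9.91e-20), and the difference between these groups was 0.04 with a 95% interval of -0.08 to 0.16 (edgeR adjusted p = 0.613). With afatinib CCND3 fell by 0.30 (SE 0.07, edgeR adjusted p = 0.000256), a call lost without the 4 libraries with KRT5 reads (-0.20, edgeR adjusted p = 0.194).

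With these opposite changes, the make-up of the D-type cyclin transcripts shifted. CCND2 held 90.6% ± 0.733 (SD, n = 3) of the summed CPM per kb of CCND1, CCND2 and CCND3 in DMSO and 90.7% ± 0.667 with afatinib. It held 69.3% ± 0.490 with romidepsin and 59.3% ± 1.61 with both drugs. CCND3 rose from 9.25% in DMSO to 30.3% with romidepsin and 40.2% with both. CCND1, the D-type cyclin of many epithelial and mantle lymphoma cells, made up at most 0.429% in any group. The length used is that of all annotated exons, not of the transcripts expressed, so shares between genes are approximate. CCND2 pairs lying wholly within shared bases are missing from its share. The SD covers neither of these limits.

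CCNE1 encodes cyclin E1, the partner of CDK2 at the entry to S phase (chromosome 19, 29811991 to 29824312, exons of 2461 bases). It was at 15.6, 16.7 and 16.6 CPM in DMSO, 9.93, 10.02 and 11.1 CPM with afatinib, 18.6, 19.9 and 15.3 CPM with romidepsin, and 20.6, 20.5 and 22.6 CPM with both drugs. Afatinib was below all other groups and the combination above them, while romidepsin and DMSO overlapped. With afatinib it fell by 0.65 (SE 0.13, edgeR adjusted p = 4.52e-05) and the combination was 0.38 above DMSO (SE 0.12, edgeR adjusted p = 0.00356). Romidepsin alone differed by 0.13 with a 95% interval of -0.11 to 0.37 (edgeR adjusted p = 0.369). Between the combination and romidepsin the difference was 0.25 (SE 0.12, edgeR adjusted p = 0.0642), and it was called with library size alone (0.34, edgeR adjusted p = 0.0124), with DESeq2 size factors (0.28, edgeR adjusted p = 0.0381) and with the 2 groups alone (0.29, edgeR adjusted p = 0.0342). Leaving out DMSO replicate 1, romidepsin replicate 2 or afatinib replicate 1 or 3 also brought the call (0.28 to 0.32, edgeR adjusted p of 0.0388 to 0.0447).

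Against romidepsin alone, the combination had 1 of the 8 tested genes higher (CDKN2D), 3 lower (CDKN1A, CDKN2C and CCND2) and 4 not called, beside 54.3% of all genes called, 25.1% higher and 29.3% lower. Against afatinib alone it had 4 higher and 3 lower, beside 69.2% of all genes, 33.4% higher and 35.8% lower, and CDKN2A was not called. In those, CDKN1A was higher by 1.43, CDKN2D by 1.39, CCND3 by 1.34 and CCNE1 by 1.03, and CCND2 differed by -1.41, CDKN2C by -1.26 and CDKN1B by -0.96. The single drugs differed from each other in all 8 genes, 5 higher and 3 lower with romidepsin, beside 64.6% of all genes, 32.2% higher and 32.4% lower. Those 5 were CDKN1A, CDKN2A (which passed the filter through its romidepsin libraries), CDKN2D, CCND3 and CCNE1. These comparisons share libraries with those against DMSO.

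Whether the combination equalled the sum of the single-drug changes on the log2 scale was tested as an interaction, which edgeR called for 30.2% of all genes (11.7% above and 18.5% below the sum) and for 5 of these 8, 2 above and 3 below. CDKN1A and CCNE1 departed furthest. For CDKN1A the sum of the single changes would give 1740 CPM and the combination was measured at 1084 CPM (interaction -0.68, SE 0.08, edgeR adjusted p = 4.83e-10). For CCNE1 the sum would give 11.4 CPM and 21.2 CPM was measured (0.90, SE 0.17, edgeR adjusted p = 5.74e-05), so that the fall with afatinib was not seen in the presence of romidepsin. CCND3 was above its sum, at 158 against 125 CPM (0.34, SE 0.09, edgeR adjusted p = 0.00317), and CCND2 below it, at 289 against 356 CPM (-0.30, SE 0.07, edgeR adjusted p = 0.00137). Without the 4 libraries with KRT5 reads, the CCND3 interaction was 0.26 (edgeR adjusted p = 0.162) and that of CCND2 -0.23 (edgeR adjusted p = 0.110). CDKN1B stood at 68.7 against 80.8 CPM (-0.23, SE 0.09, edgeR adjusted p = 0.0488), a call lost in 14 alternatives. Among these were leaving out DMSO replicate 1 or 3, romidepsin replicate 2 or 3, any 1 of the afatinib libraries, or combination replicate 1 or 3 (-0.19 to -0.26, edgeR adjusted p of 0.0544 to 0.150), and the 4 libraries with KRT5 reads (-0.27, edgeR adjusted p = 0.147). CDKN2D was measured at 77.8 against 85.4 CPM (-0.13, 95% interval -0.37 to 0.11, edgeR adjusted p = 0.463) and CDKN2C at 27.0 against 32.8 CPM (-0.28, 95% interval -0.52 to -0.04, edgeR adjusted p = 0.0751). The CDKN2C interaction was called without DMSO replicate 1 (-0.34, edgeR adjusted p = 0.0417) and without the 4 libraries with KRT5 reads (-0.50, edgeR adjusted p = 0.0219).

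**Figure D4:**
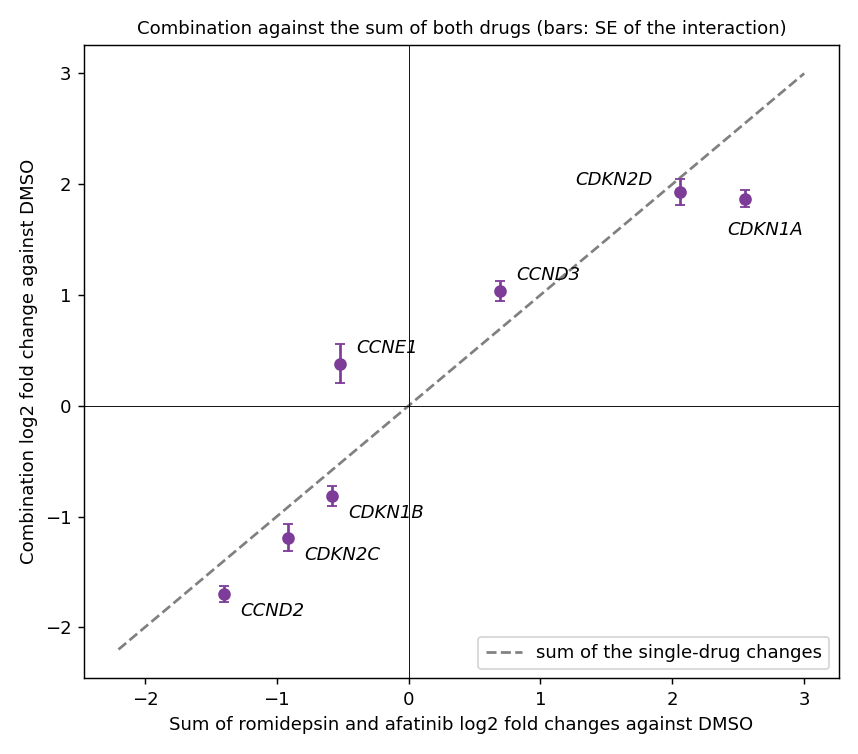
Log2 fold change of the combination against DMSO (vertical axis) and the sum of the changes with romidepsin and afatinib alone (horizontal axis) for the 7 tested genes other than CDKN2A; bars are the SE of the interaction and the dashed line marks equality. CDKN1A lies below the line by 0.68 and CCNE1 above it by 0.90.

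The other genes of the pathway were followed in 5 lists, whose medians stand beside all-gene medians of -0.0024 with romidepsin, 0.0016 with afatinib and -0.0050 with both drugs. Among the G1 kinases and their partners, 11 of 12 genes were tested. Romidepsin raised 4 and lowered 5 (median log2 fold change 0.19), afatinib raised 2 and lowered 6 (median -0.40), and the combination raised 4 and lowered 5 against DMSO (median 0.16). Of all genes, 31.1% were called higher and 31.5% lower with romidepsin, 22.0% and 23.3% with afatinib, and 37.2% and 37.1% with both, against which the counts of each list are to be read. CCNA2, the cyclin of S phase, changed by -1.05 with romidepsin (SE 0.07, edgeR adjusted p = 6.37e-19), -0.79 with afatinib (SE 0.07, edgeR adjusted p = 4.53e-14) and -2.22 with both (SE 0.07, edgeR adjusted p = 6.39e-31). CDC25A, the phosphatase that activates CDK2, changed by -1.22 with romidepsin (SE 0.07) and -1.73 with both (SE 0.07). CDK4, the kinase that INK4 proteins bind, went from 150 ± 12.9 CPM (SD, n = 3) in DMSO to 182 ± 8.51 with afatinib, 97.1 ± 3.33 with romidepsin and 63.5 ± 4.25 with both, with an interaction of -0.89 (SE 0.09, edgeR adjusted p = 1.82e-10). CDK6 stood at 405 ± 23.0 CPM in DMSO and 217 ± 20.2 with both, with an interaction of -0.61 (SE 0.08, edgeR adjusted p = 9.07e-08).

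Pocket proteins and E2F factors, which receive the signal of these kinases, had 12 of 13 genes tested. Romidepsin raised 3 and lowered 8 (median -0.30), afatinib raised 4 and lowered 2 (median -0.02), and the combination raised 3 and lowered 8 (median -0.60), beside 62.6%, 45.4% and 74.3% of all genes called in either direction. RB1, the retinoblastoma gene, rose by 0.54 with romidepsin (SE 0.08, edgeR adjusted p = 5.90e-08) and by 0.50 with both (SE 0.08, edgeR adjusted p = 1.98e-07). E2F1, an activating E2F factor, fell by 1.20 with romidepsin (SE 0.07, edgeR adjusted p = 5.91e-21) and rose by 0.32 with afatinib (SE 0.06, edgeR adjusted p = 4.04e-05). E2F8, a repressive E2F factor that is itself an E2F target, fell by 2.71 with both drugs (SE 0.15, edgeR adjusted p = 9.51e-22).

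Of 12 E2F targets, all tested, 11 act in DNA replication or nucleotide supply and the other is MKI67, a proliferation marker. Of the 12, 11 fell and 1 rose with romidepsin (median -0.94), 7 fell and 1 rose with afatinib (median -0.19), and 11 fell and 1 rose with both (median -1.37), where 31.5%, 23.3% and 37.1% of all genes were called lower. Against romidepsin alone, the combination had 10 lower and 1 higher, beside 29.3% and 25.1% of all genes. The gene that rose with romidepsin was RRM2, a subunit of ribonucleotide reductase, by 0.88 (SE 0.05, edgeR adjusted p = 1.55e-19). MCM5 and MCM7, subunits of the replicative helicase, changed by -2.56 (SE 0.08, edgeR adjusted p = 1.67e-31) and -2.57 (SE 0.07, edgeR adjusted p = 2.05e-33) with both drugs. MKI67 fell by 0.59 with afatinib (SE 0.06, edgeR adjusted p = 1.48e-12) and was lower in the combination than with romidepsin (-1.18, SE 0.06, edgeR adjusted p = 8.99e-23).

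Genes for the turnover of these proteins, 16 of 16 tested, had 5 higher and 7 lower with romidepsin (median -0.07), 0 higher and 8 lower with afatinib (median -0.15), and 5 higher and 10 lower with both (median -0.67), beside 62.6%, 45.4% and 74.3% of all genes called. SKP2, which marks p27 for destruction, fell by 0.76 with afatinib (SE 0.10, edgeR adjusted p = 1.20e-08), and CKS1B, its cofactor, fell by 0.61 (SE 0.09, edgeR adjusted p = 4.29e-07). FBXW7, which marks cyclin E for destruction, rose by 0.90 with romidepsin (SE 0.09, edgeR adjusted p = 3.99e-13) and by 1.16 with both (SE 0.08, edgeR adjusted p = 1.96e-17). DTL, which marks p21 for destruction on chromatin, fell by 1.52 with both (SE 0.09, edgeR adjusted p = 2.83e-21). RNA levels say nothing of protein stability, which was not measured.

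Of 22 transcriptional regulators of these genes, 20 were tested. Romidepsin raised 10 and lowered 8 (median 0.27), afatinib raised 8 and lowered 6 (median -0.02), and the combination raised 8 and lowered 9 (median -0.13), beside 62.6%, 45.4% and 74.3% of all genes called. ID1, a repressor of CDKN2A, went from 1.37 ± 0.397 CPM (SD, n = 3) in DMSO to 18.9 ± 1.90 CPM with romidepsin and 6.74 ± 1.18 CPM with both. MXD1, an antagonist of MYC, rose by 2.49 with romidepsin (SE 0.12, edgeR adjusted p = 4.91e-23), 0.59 with afatinib (SE 0.15, edgeR adjusted p = 0.000960) and 3.53 with both (SE 0.12, edgeR adjusted p = 1.45e-30). EGR1, an immediate early gene of MAP kinase signalling, was 21.8 ± 3.46 CPM in DMSO and 3.05 ± 0.954 CPM with afatinib, and 22.6 ± 3.55 CPM with both drugs, with an interaction of 2.31 (SE 0.23, edgeR adjusted p = 1.13e-10).

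**Figure D5:**
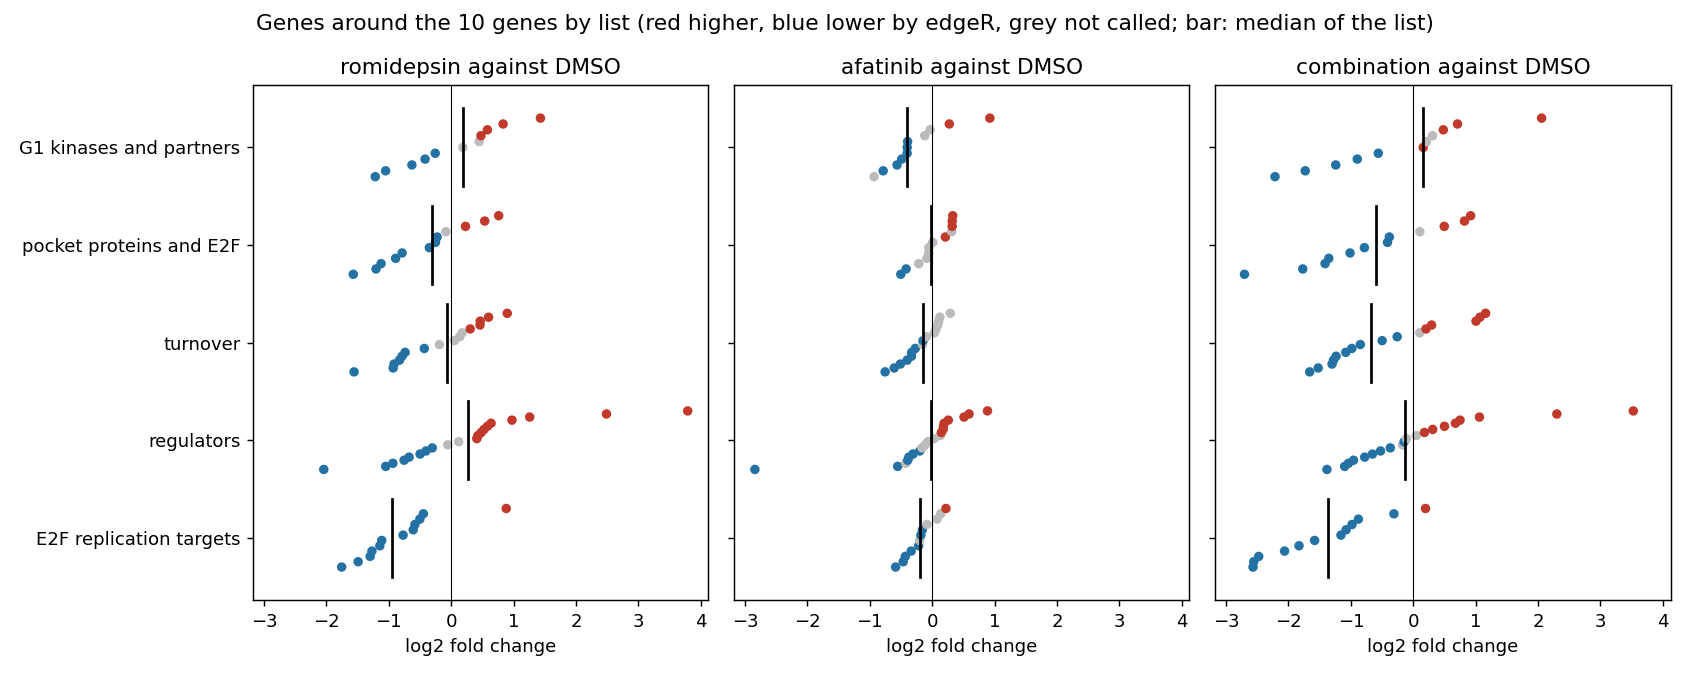
Log2 fold change of every tested gene of the 5 lists in the 3 comparisons with DMSO (horizontal axis: log2 fold change; rows: lists; 1 point per gene, red where called higher by edgeR, blue where called lower and grey where not called; upright bar: median of the list). The E2F targets lie to the left with romidepsin and with both drugs, with medians of -0.94 and -1.37, while the other lists spread to both sides.

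Among 10190 genes compared by Pearson's r of log2 CPM over the 12 libraries, the nearest to CDKN1A was PTGER4, a prostaglandin receptor (r = 0.997). The nearest to CDKN1B was NEURL1 (r = 0.995), to CDKN2C THEM5 (r = 0.995), to CCND2 KPNB1 (r = 0.998) and to CCND3 MAP1A (r = 0.997). Between 466 and 998 genes had an r above 0.95 with each of CDKN1A, CDKN1B, CDKN2C, CDKN2D, CCND2 and CCND3. CCNE1 had 6 such genes, the nearest being CELSR2 (r = 0.974). The points are the same 12 libraries in 4 groups, so r largely reflects the relative spacing of the 4 group levels.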

How the data were processed

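Total RNA of 12 MyLa samples in 4 groups was sequenced. The authors aligned reads with STAR 2.7.9a to GRCh38.p12, per the submitters' processing notes, and made the deposited counts of read pairs per gene name with featureCounts 2.0.0 and GENCODE 31, per the file headers. Counting did not use strand, and pairs that fell on several genes or places were left out by the program's defaults. Another deposited table was not used here. The 10 genes and all gene lists were chosen with earlier results of these data known. From the counts, edgeR 4.0.16 in R 4.3.3 (filterByExpr with a minimum count of 10, TMM factors, glmQLFit with robust estimates, glmQLFTest, 4 group means, two-sided) gave log2 fold changes with SE for 7 comparisons. P-values were adjusted by Benjamini-Hochberg over 16208 genes, with a threshold of 0.05. CPM used TMM-scaled library sizes, and the biological coefficient of variation was 6.14%. No pair of libraries held identical counts. Alternatives were DESeq2 1.42.0, other size factors, other filters, the compared groups alone, a replicate block and leaving out libraries; leaving out the 4 libraries with over 10 KRT5 counts was chosen after seeing the data and left DMSO with 1 library, assumed to vary like the other groups. From each pathway list and comparison, up to 2 genes called higher and 2 called lower with the largest change at a mean of at least 5 CPM could be named. Group levels are given for CDK4, CDK6, ID1 and EGR1 among them. Some genes of these lists are not reported here by name. Gene positions are those of the deposited table (GRCh38.p12).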

Additional observations from a re-analysis of the deposited data

Results flagged for a closer look

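For 5 genes, the effect of romidepsin differed between cells with and without afatinib by the interaction test of edgeR, on the log2 scale. CDKN1A rose less in the presence of afatinib (-0.68), CDKN1B fell more (-0.23) and CCND2 fell more (-0.30). CCND3 rose more (0.34). The CDKN1B call was lost in many of the alternatives, as given above. The CCND2 and CCND3 calls were lost without the 4 libraries with KRT5 reads, which left DMSO with 1 library. There the difference was -0.23 for CCND2 and 0.26 for CCND3. For CCNE1 the romidepsin effect was 0.13 without afatinib and 1.03 with it, a difference of 0.90. An interaction was called for 30.2% of all tested genes.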

How the results depend on the processing

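Over 7 comparisons, 1029 values of the 8 tested genes under the alternatives kept direction and side of the threshold, 4 changed sign with neither value called, 58 kept direction but missed it, 9 kept direction and newly passed it, and 0 called values reversed. The number of these genes higher in the combination than with romidepsin was 1, but 2 with DESeq2 size factors, with library size alone and with the compared groups alone, and 1 to 2 when leaving out single libraries, since CCNE1 then passed. Without the 4 libraries with KRT5 reads, the interaction had 1 higher gene instead of 2. Same-numbered libraries did not deviate together: of 18 such pairs 0 had r over 0.1 (-0.09 to 0.09), and 4 of 12 libraries matched their own number best. With the replicate number as a block, 3 calls were lost: CDKN2A with romidepsin (1.23, edgeR adjusted p = 0.0543), CDKN1B with afatinib (0.15, 0.0567) and the CDKN1B interaction (-0.24, 0.0579). The cause of these changes was not tested. Depth limits CDKN1C, CDKN2A and CDKN2B, which had 59, 86 and 24 counts in all.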
